A study of Mus musculus with 8 samples.

Results

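The semaphorins are guidance ligands of growing axons and migrating cells, and the plexins and neuropilins are their receptors. Taken by gene symbol from the platform's annotation were 20 semaphorin, 9 plexin and 2 neuropilin genes, 31 of the 19938 genes that the arrays measured, and all 31 were represented. Where a gene had several probe sets, the brightest of them by its mean over the 8 arrays stood for the gene. This was the case for *Sema4d*, whose other probe set also passed no test, and for *Sema6b*, whose 2 probe sets held the same value on all 8 arrays.

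Affymetrix Mouse Gene ST arrays had profiled 4 groups of mouse embryonic midbrain samples, with 2 arrays per group. The E14.5 neurons and the E13.5 neurons were mesodiencephalic dopaminergic (mdDA) neurons isolated by FACS through their GFP from embryos of the genotype *Pitx3*GFP/+ (C57BL/6 x 129/Ola, mixed), in which GFP is expressed from one *Pitx3* allele. The mdDA domain (b-GAL+/PITX3+) and the lateral domain (b-GAL–/PITX3–, at the alar-basal boundary) were cut by laser from antibody-stained sections of fixed E12.5 *BAT-gal* embryos (B6D2F1, mixed), and each was a pool from 5 embryos. *BAT-gal* is a *LacZ* transgene behind LEF1/TCF binding sites that reports canonical WNT/b-catenin signaling. Stage, strain, genotype, fixation and isolation all differ between sorted neurons and dissected tissue and cannot be told apart. The arrays of a group are technical replicates by their labels, so each p-value here measures the spread between arrays and not between embryos. That spread was estimated for each gene with the help of all probe sets. A standard error (SE) given here is thus not that of the gene's own arrays alone. In such bulk RNA, fewer cells of a type and less RNA per cell cannot be told apart.

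Secreted class 3 semaphorins are bound on the growth cone by a neuropilin, which has no signaling domain of its own and passes the signal to a plexin of the A type. Transmembrane semaphorins of classes 4, 5 and 6 and the GPI-anchored class 7 semaphorin bind plexins directly. Some of the transmembrane ones can also act as receptors themselves. In the ventral midbrain these genes are known for guiding mdDA axons towards the forebrain and for the migration of mdDA neurons.

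All values are log2 expression levels after robust multi-array averaging (RMA), in which 1 unit is a doubling, and the level of a gene is set only against its own level in other groups. The median over all probe sets was 4.39 on every E14.5 and E13.5 array, 4.60 and 4.57 for the mdDA domain and 4.60 on each lateral array. On all 8 arrays 21 of the 31 genes lay above the median of the array, and 5 lay below it (*Sema3a*, *Sema3d*, *Sema3e*, *Sema5a* and *Plxnb3*). No detection call was used, so the size of a difference between levels near or below the median is uncertain. As a check of the labels, 9 of 10 dopamine neuron markers were higher in mdDA than in lateral tissue, with *Th*, the rate-limiting enzyme of dopamine synthesis, at a log2 difference of 3.86, while *Pitx3* itself did not pass (0.67, adjusted p = 0.228). All 6 GABAergic markers were lower in mdDA than in lateral tissue, as were 5 of 9 measured cell division markers and 3 of 10 neural progenitor markers, while 4 of 12 pan-neuronal markers were higher. Of all genes 1.69% were called as higher and 1.13% as lower between these tissues.

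To find out which guidance genes distinguish the WNT/b-catenin-responding mdDA domain, it was compared with the lateral domain by a paired limma test on these 4 arrays, adjusted over all 35556 probe sets and called at a false discovery rate below 10%. WNT/b-catenin response, mdDA identity and position all differ between the domains and cannot be told apart. In the mdDA domain 4 of the 31 genes were higher and none was lower, and the 4 were *Nrp2*, *Plxna4*, *Sema3c* and *Plxnc1*. Among all 19938 genes 2.82% were called, 1.69% as higher and 1.13% as lower. By role, the calls comprised 3 of the 11 receptors and 1 of the 20 ligands.

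*Nrp2*, the neuropilin that binds SEMA3F and SEMA3C, had the largest difference of the 31 genes. Its log2 level was 7.49 and 7.73 on the mdDA arrays, against 4.65 and 4.80 on the lateral arrays. The lateral values lay close to the array median and the mdDA values far above it. The log2 difference was 2.89 ± 0.15 (SE), a 7.39-fold higher level in the mdDA domain (adjusted p = 0.0241). In the sorted cells *Nrp2* stood at 8.06 and 8.11 in E14.5 neurons and at 8.29 and 8.07 in E13.5 neurons. Every sorted array thus lay above both mdDA arrays, and sorted neurons exceeded the mdDA domain by 0.52 ± 0.13 (adjusted p = 0.0484).

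*Plxna4* encodes a plexin of the A type that signals for SEMA3A with neuropilin and binds class 6 semaphorins directly. Its log2 level was 7.76 on both mdDA arrays, against 6.34 and 6.35 on the lateral arrays. This was a difference of 1.41 ± 0.15, or 2.66-fold (adjusted p = 0.0586), with no overlap between the domains. In E14.5 neurons it measured 8.52 and 8.74, and in E13.5 neurons 8.42 and 8.46. All 4 sorted arrays were above the mdDA domain, by 0.77 ± 0.11 or 1.71-fold (adjusted p = 0.0103).

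*Plxnc1*, the plexin that binds SEMA7A, was likewise lowest in the lateral domain and highest in sorted neurons. Levels of 7.70 and 7.75 were measured in the mdDA domain, against 6.74 and 6.82 in the lateral domain. The domains differed by 0.94 ± 0.15, or 1.92-fold, and this call lay nearest to the threshold (adjusted p = 0.0946). The E14.5 neurons had 8.20 on both arrays and the E13.5 neurons 8.48 and 8.62, so that sorted neurons exceeded the mdDA domain by 0.65 ± 0.10 (adjusted p = 0.0140). *Nrp2*, *Plxna4* and *Plxnc1* were the genes that passed as higher in both comparisons, which share the mdDA arrays.

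*Sema3c*, a secreted ligand bound by both neuropilins, was the one semaphorin called between the domains. It reached 5.35 and 5.46 in the mdDA domain, against 3.99 and 4.07 in the lateral domain. The domains thus differed by 1.37 ± 0.15 or 2.59-fold (adjusted p = 0.0609). Sorted neurons had 3.78 and 4.02 at E14.5 and 3.73 and 3.91 at E13.5. Against the mdDA domain this was a difference of -1.54 ± 0.12, or 2.91-fold lower (adjusted p = 0.00250). The mdDA arrays were the only 2 arrays on which *Sema3c* lay above the array median, and the values of the other 6 arrays lay below it. Both differences of *Sema3c* thus rest on the same 2 mdDA arrays.

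**Figure D1:**
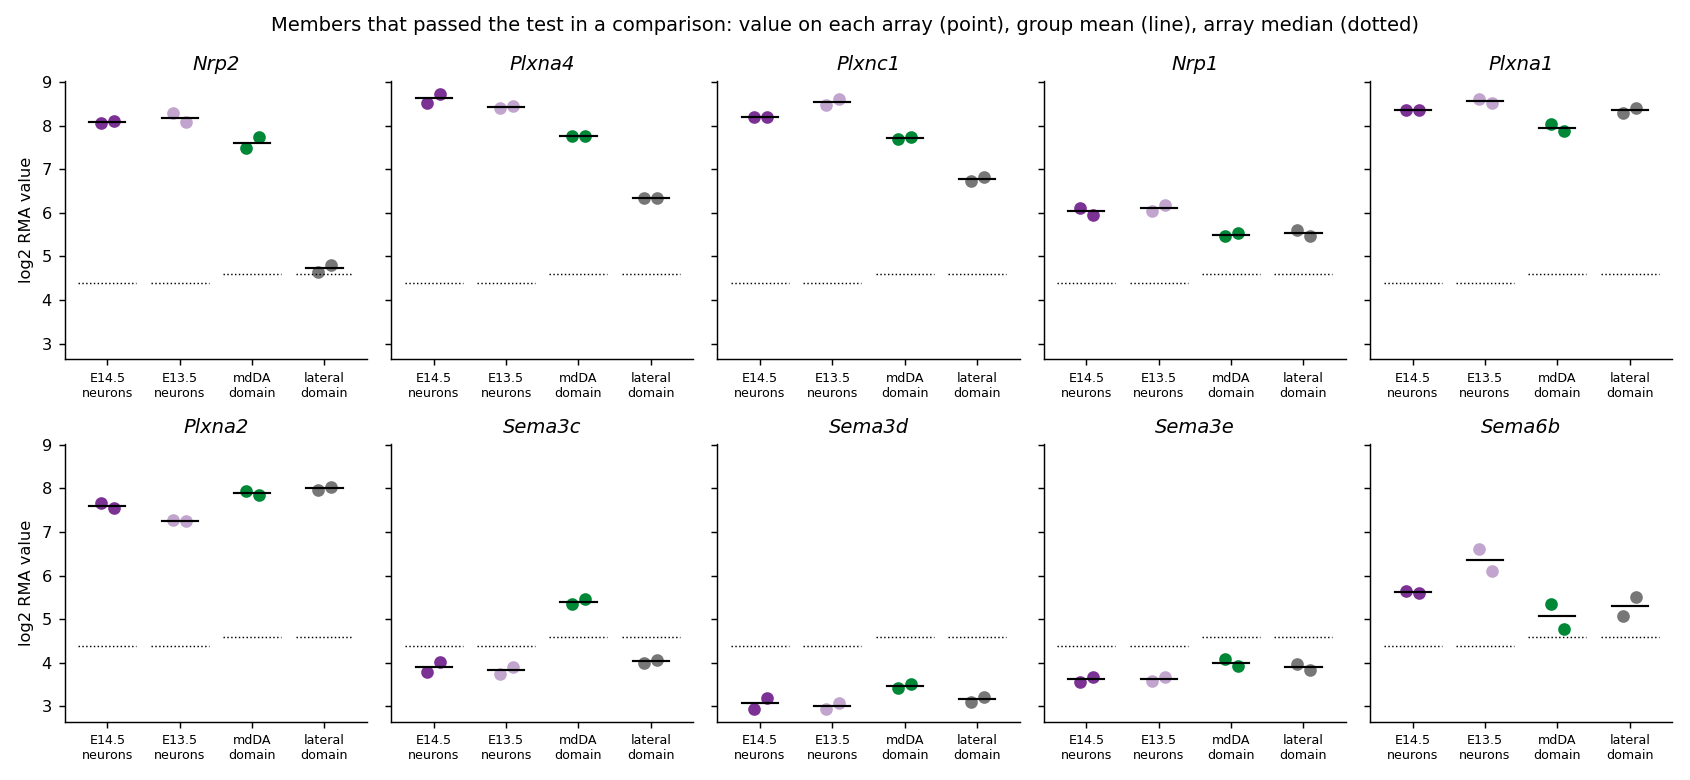
Log2 RMA level (vertical axis) of the 10 genes that passed a test, with a point for each array, a solid line for the group mean of 2 arrays and a dotted line for the median of all probe sets. *Nrp2*, *Plxna4* and *Plxnc1* stand lowest in the lateral domain and highest in sorted neurons, whereas *Sema3c* stands highest in the mdDA domain, at 5.35 and 5.46.

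For the genes that differed between the domains the stretch of 250 bases before the RefSeq gene start (build GRCm38.p6) is shown, 5′ to 3′ on the strand of the gene, because *BAT-gal* reports LEF1/TCF activity and LEF1/TCF factors bind the core CTTTG. Capitals mark this core on either strand. The stretches are chr1:62703067-62703316 (plus strand) for *Nrp2*, chr5:17574566-17574815 (plus strand) for *Sema3c* and chr10:94944846-94945095 (minus strand) for *Plxnc1*, and *Plxna4* is named only.
Nrp2: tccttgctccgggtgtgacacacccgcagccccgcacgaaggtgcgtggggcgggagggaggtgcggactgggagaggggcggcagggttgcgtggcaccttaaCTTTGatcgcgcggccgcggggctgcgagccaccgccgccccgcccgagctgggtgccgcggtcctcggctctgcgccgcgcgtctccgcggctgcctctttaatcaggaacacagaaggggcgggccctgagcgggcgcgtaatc
Sema3c: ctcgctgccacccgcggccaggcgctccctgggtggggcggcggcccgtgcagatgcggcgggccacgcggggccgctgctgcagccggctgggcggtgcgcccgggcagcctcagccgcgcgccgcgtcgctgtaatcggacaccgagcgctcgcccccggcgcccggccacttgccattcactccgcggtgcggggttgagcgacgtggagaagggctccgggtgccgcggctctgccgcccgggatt
Plxnc1: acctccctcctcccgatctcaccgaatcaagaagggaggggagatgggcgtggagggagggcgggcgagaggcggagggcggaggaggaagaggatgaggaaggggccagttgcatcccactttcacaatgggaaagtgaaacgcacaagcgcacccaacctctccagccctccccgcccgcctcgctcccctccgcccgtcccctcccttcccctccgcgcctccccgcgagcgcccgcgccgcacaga
The core occurred once, in *Nrp2*, at positions -146 to -142 counted from the start, and not in the other two. It was held by 48.6% of 32851 RefSeq promoter stretches of this length and by 18 of 37 stretches from 26 of the 31 genes, so that about as many of these stretches as of all held a match. AAAGGTCA, a response element of NR4A receptors, was held by 1.34% of all stretches, TGTTTAC, a core bound by FOXA factors, by 3.17%, and TAATTA, a homeodomain core, by 4.84%. None of the 37 stretches held any of these 3 motifs on either strand. The 4 motifs were chosen after the levels were known, and a match is not a bound site.

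The other receptors did not pass between the domains. *Nrp1*, the neuropilin of SEMA3A, averaged 5.50 over the mdDA arrays and 5.54 over the lateral arrays. Of the A-type plexins, *Plxna1* averaged 7.95 in mdDA and 8.35 in lateral tissue, and *Plxna3* averaged 7.81 in mdDA and 7.57 in lateral tissue. *Plxna2* differed by -0.11. The arrays of the domains did not overlap for any of these 3 plexins, as was the case for 46.4% of all genes. *Plxnb1*, the SEMA4D receptor, *Plxnb2*, a receptor of class 4 semaphorins, *Plxnb3*, the SEMA5A receptor, and *Plxnd1*, which binds SEMA3E without a neuropilin, had group means within 0.16 of each other between the domains.

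Among the ligands, 3 further genes had differences over 0.6 without passing. *Sema6d*, a transmembrane ligand of plexin-A1, measured 7.25 and 7.37 in the mdDA domain, against 6.50 and 6.21 in the lateral domain (log2 difference 0.96 ± 0.18, adjusted p = 0.128). *Sema6a*, a ligand of plexin-A2 and plexin-A4, ran the other way, with 7.87 and 7.83 in the mdDA domain, against 8.62 and 8.61 in the lateral domain (-0.76 ± 0.15, adjusted p = 0.135). *Sema7a*, the ligand of plexin-C1, measured 6.16 and 6.18 in the mdDA domain, against 5.43 and 5.59 in the lateral domain (0.66 ± 0.15, adjusted p = 0.180). All 3 had arrays that did not overlap between the domains, and all 3 passed when the adjustment ran over probe sets with 1 gene symbol only, which gave 7 called genes. This setting called 11.5% of the probe sets it tested, against 2.62% of all probe sets otherwise. Of the 31 genes 19 had domains that did not overlap, as had 46.4% of all genes. The median log2 difference of the 31 was 0.11, against -0.0055 over all genes.

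These calls rest on 2 arrays per domain. Without either mdDA array no gene passed, and without either lateral array *Nrp2* alone passed, the adjusted p for *Nrp2* lying between 0.0594 and 0.123 over these 4 fits, which had no block for the array number and called between 0.0422% and 0.478% of all probe sets.

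**Figure D2:**
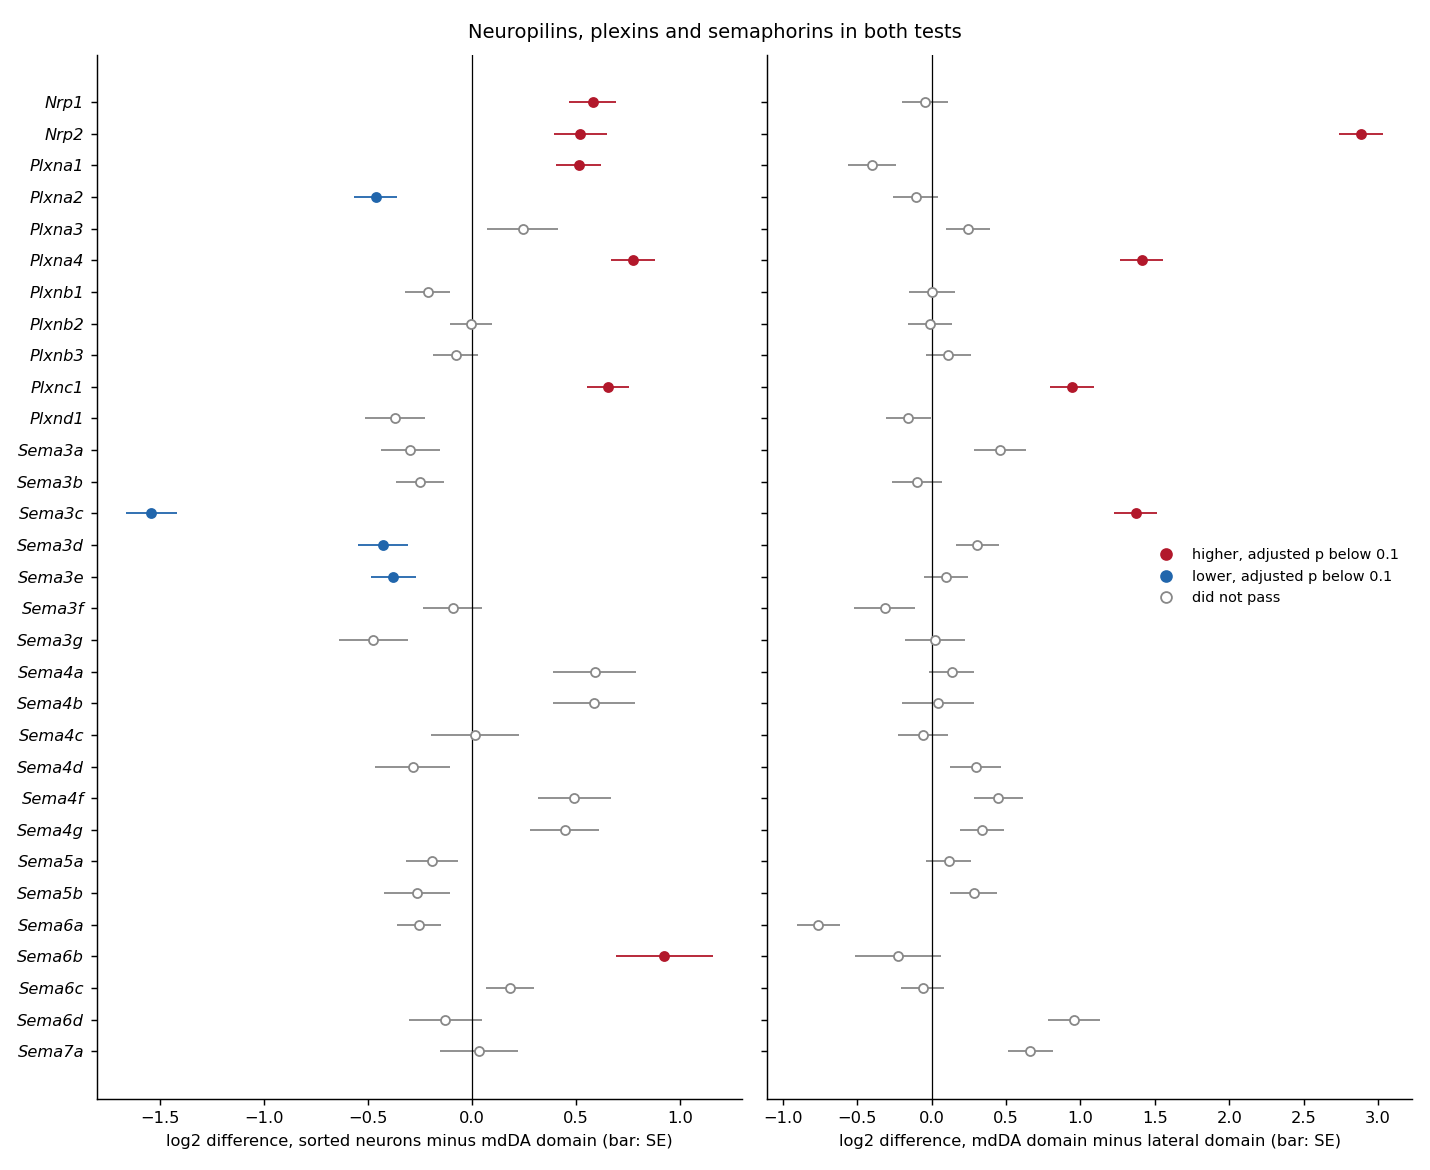
Log2 difference of each of the 31 genes between sorted neurons and the mdDA domain (left) and between the mdDA domain and the lateral domain (right), with bars of ± 1 SE and filled points for an adjusted p below 0.1. With the values as deposited, the right panel holds 4 filled points, all to the right of 0, and the left panel holds 6 on the right of 0 and 4 on the left.

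The sorted mdDA neurons were then compared with the mdDA domain, as the mean of E14.5 and E13.5 neurons in a limma fit over all 8 arrays without a block. In sorted neurons 6 of the 31 genes were higher (*Sema6b*, *Plxna4*, *Plxnc1*, *Nrp1*, *Nrp2* and *Plxna1*) and 4 were lower (*Sema3c*, *Plxna2*, *Sema3d* and *Sema3e*). Of all genes 17.6% were called in this comparison, 10.3% as higher and 7.29% as lower. With the values as deposited, 5 receptors were higher and 1 lower of 11, and 1 ligand was higher and 3 lower of 20. The split changed with the scaling, and a difference between the roles was not tested. When each array was centred on its own median, which raises every difference by 0.20, 11 genes were higher (5 receptors and 6 ligands) and 1, *Sema3c*, was lower. With repeated quantile normalization 3 receptors were higher and 2 lower, and 2 ligands were higher and 2 lower. Of all probe sets 18.4% were called with the values as deposited, 20.7% with centred arrays and 14.6% with repeated quantile normalization.

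Both neuropilins were higher in sorted neurons. *Nrp1* measured 6.12 and 5.96 in E14.5 neurons and 6.04 and 6.18 in E13.5 neurons, against 5.46 and 5.53 in the mdDA domain. No sorted array overlapped with the mdDA domain, and the difference was 0.58 ± 0.11 or 1.5-fold (adjusted p = 0.0260). In contrast to *Nrp2*, the lateral arrays, with 5.61 and 5.47, overlapped with the mdDA arrays.

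*Plxna1* and *Plxna2*, coreceptors of the neuropilins, moved in opposite directions. *Plxna1* measured 8.37 and 8.35 in E14.5 neurons and 8.62 and 8.52 in E13.5 neurons, against 8.03 and 7.87 in the mdDA domain (0.51 ± 0.11, adjusted p = 0.0313). Its lateral values of 8.30 and 8.41 lay within the range of the sorted arrays or just below it. *Plxna2* measured 7.67 and 7.55 in E14.5 neurons and 7.26 and 7.25 in E13.5 neurons, against 7.95 and 7.84 in the mdDA domain (-0.46 ± 0.10, adjusted p = 0.0377). The lateral arrays, at 7.96 and 8.04, were the highest for *Plxna2*. *Plxna2* did not pass with centred arrays, and *Plxna1* and *Nrp2* did not pass with repeated quantile normalization.

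Among the ligands *Sema6b*, which binds plexin-A4, was the one that was higher. It measured 5.64 and 5.60 in E14.5 neurons and 6.60 and 6.10 in E13.5 neurons, against 5.35 and 4.78 in the mdDA domain and 5.07 and 5.52 in the lateral domain. The difference from the mdDA domain was 0.92 ± 0.23 or 1.90-fold (adjusted p = 0.0541), and the E13.5 arrays stood highest.

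The 7 secreted class 3 ligands all had negative differences between sorted neurons and the mdDA domain. Their median was -0.38, against -0.0525 over all genes. Of the 7, 3 passed as lower, as did 7.29% of all genes, and only *Sema3f* lay above the array median on all 8 arrays. With centred arrays 6 were negative, *Sema3f* was positive and *Sema3c* alone passed. *Sema3d* measured 2.94 and 3.20 in E14.5 neurons and 2.95 and 3.07 in E13.5 neurons, against 3.42 and 3.51 in the mdDA domain (-0.43 ± 0.12, adjusted p = 0.0728). *Sema3e*, the ligand of plexin-D1, measured 3.56 and 3.67 in E14.5 neurons and 3.58 and 3.66 in E13.5 neurons, against 4.08 and 3.92 in the mdDA domain (-0.38 ± 0.11, adjusted p = 0.0791). Both lay below the median of every array, and neither passed under either of the other scalings. The other 4 did not pass, namely *Sema3a* and *Sema3b*, at group means of 3.08 to 4.55 over the 4 groups, *Sema3f*, the NRP2 ligand, at 7.09 to 7.66, and *Sema3g*, at 4.10 to 4.61.

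The class 4 semaphorins, transmembrane ligands of B-type plexins among others, had 5 of 6 differences above 0, but none passed. Their median was 0.47, against -0.0525 over all genes. *Sema4a* averaged 7.14 in E14.5 neurons and 7.59 in E13.5 neurons, against 6.78 in the mdDA domain (adjusted p = 0.115). *Sema4b* averaged 6.71 and 6.50 in these neurons, against 6.02 in the mdDA domain (adjusted p = 0.111). Together with *Sema4f* and *Sema4g* they passed as higher when arrays were centred, and *Sema4c* and *Sema4d* passed in neither scaling. *Sema5a*, *Sema5b*, *Sema6a*, *Sema6c*, *Sema6d* and *Sema7a* did not pass either, and the log2 differences of these 6 ligands lay between -0.26 and 0.18. *Plxna3*, the B-type plexins and *Plxnd1* also did not pass. With repeated quantile normalization *Sema6a* (-0.45, adjusted p = 0.0480) and *Plxnb1* (-0.42, adjusted p = 0.0600) passed as lower, and with centred arrays *Sema6c* passed as higher (0.38, adjusted p = 0.0774).

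Of the 31 genes 21 had sorted arrays that did not overlap with the mdDA arrays, as had 37.8% of all genes. Their median difference was -0.079, against -0.0525 over all genes. Without the first mdDA array 4 genes passed and without the second 3, against 8 to 10 when a sorted array was left out. The share of all probe sets called fell too, to 5.73% and 7.85% without an mdDA array, against 13.8% to 18.3% without a sorted array. *Sema3c*, *Plxna4* and *Plxnc1* passed in each of these 6 fits.

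Markers of other cells moved with this comparison, in which 10.3% of all genes were called as higher and 7.29% as lower. All 5 measured erythroid markers, of 6 listed, were lower in sorted neurons. Their summed linear level was 99.8 to 104 in E14.5 neurons and 93.9 to 101 in E13.5 neurons, against 3180 to 3210 in the mdDA domain. Of 10 endothelial markers 7 were lower, with sums of 166 to 178 and 155 to 162 in E14.5 and E13.5 neurons, against 278 to 300 in the mdDA domain. Of 6 pericyte markers 3 were lower (120 to 136 and 92.8 to 97.1, against 184 to 185), whereas none of 8 microglial and 6 meningeal markers passed. Neural progenitor markers were lower for 8 of 10 and cell division markers for 6 of 9 measured, while 4 of 6 GABAergic and 5 of 10 dopamine neuron markers were higher. Of 12 pan-neuronal markers 4 were higher and 2 lower. Their part in the differences of the guidance genes was not tested. Between the domains no endothelial, pericyte, microglial, meningeal or erythroid marker passed.

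**Figure D3:**
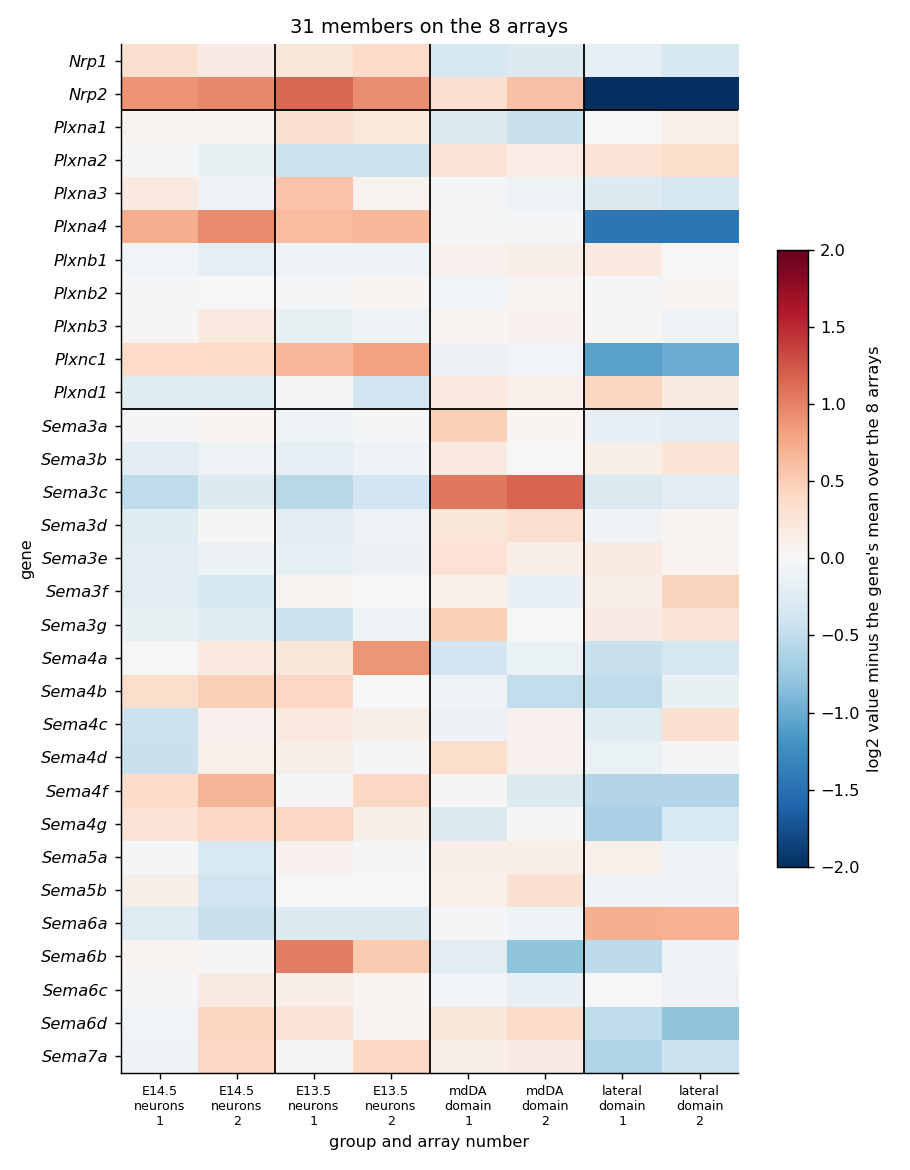
Log2 level of the 31 genes (rows) on the 8 arrays (columns), as the difference from the mean of the gene over all arrays, with colors limited to 2 log2 units on either side of 0. The strongest contrasts are the low lateral values of *Nrp2*, which lie beyond the color range, and of *Plxna4*, and the high mdDA values of *Sema3c*.

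Finally, the E14.5 neurons were compared with the E13.5 neurons on their own 4 arrays to follow the genes over time. None of the 31 genes passed, nor did any of the 35556 probe sets (0%), and at an unadjusted p below 0.05 there were 1 of the 31 genes and 2156 probe sets. This gene was *Sema6b*, with 5.64 and 5.60 in E14.5 neurons, against 6.60 and 6.10 in E13.5 neurons (log2 difference -0.73 ± 0.22, adjusted p = 0.768). The E14.5 and E13.5 arrays did not overlap for 10 of the 31 genes, against 37.2% of all genes, and this is not read as a change over time. With 2 arrays per stage, the largest difference by size after *Sema6b* was that of *Sema4a* (-0.45 ± 0.27), whose E13.5 arrays were 7.26 and 7.92.

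The binding partners and the cytoplasmic effectors of these receptors were followed through a pair of gene lists. Between the domains 1.69% of all genes were called as higher and 1.13% as lower. Of 15 co-receptors and other binding partners, 4 were higher and 1 was lower in mdDA than in lateral tissue. The higher ones were *Chl1* (log2 difference 2.84) and *L1cam* (1.51), adhesion molecules that associate with neuropilins, *Plxdc2* (2.48), a transmembrane protein with a plexin-like domain, and *Met* (1.12), the HGF receptor, which associates with B-type plexins. The lower one was *Cntn2* (-2.41), a GPI-anchored axonal adhesion molecule. *Chl1* measured 9.06 and 9.13 in the mdDA domain, against 6.22 and 6.29 in the lateral domain, and so differed by nearly as much as *Nrp2*.

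In sorted neurons 3 of the 15 partners were higher than in the mdDA domain and 3 were lower, against 10.3% and 7.29% of all genes. The higher ones were *L1cam* (0.78), *Itgb1* (0.76), the integrin subunit through which SEMA7A acts, and *Chl1* (0.41). The lower ones were *Plxdc2* (-2.28), *Cntn2* (-0.71) and *Itga1* (-0.49). *Plxdc2* measured 4.84 and 5.70 in E14.5 neurons and 5.60 and 5.50 in E13.5 neurons, against 7.68 and 7.69 in the mdDA domain and 5.14 and 5.27 in the lateral domain. Like *Sema3c*, it stood highest in the mdDA domain without overlap with any other group, and both of its differences rest on the same mdDA arrays.

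Of 36 listed effectors and regulators 33 were measured. Between the domains 1 passed, *Rnd3*, which was lower in the mdDA domain (-1.06), against 2.82% of all genes called. In sorted neurons 9 were higher and 3 (*Rnd3*, *Rras* and *Ranbp9*) were lower than in the mdDA domain, against 10.3% and 7.29% of all genes. The largest differences were those of *Dpysl2* (0.93), which encodes CRMP2, the mediator of growth cone collapse by SEMA3A, *Cdk5* (0.93), a kinase of CRMP proteins, *Farp1* (0.86), a guanine nucleotide exchange factor, and *Fyn* (0.74), a kinase bound to plexin-A receptors. Neither list had a call between E14.5 and E13.5 neurons.

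**Figure D4:**
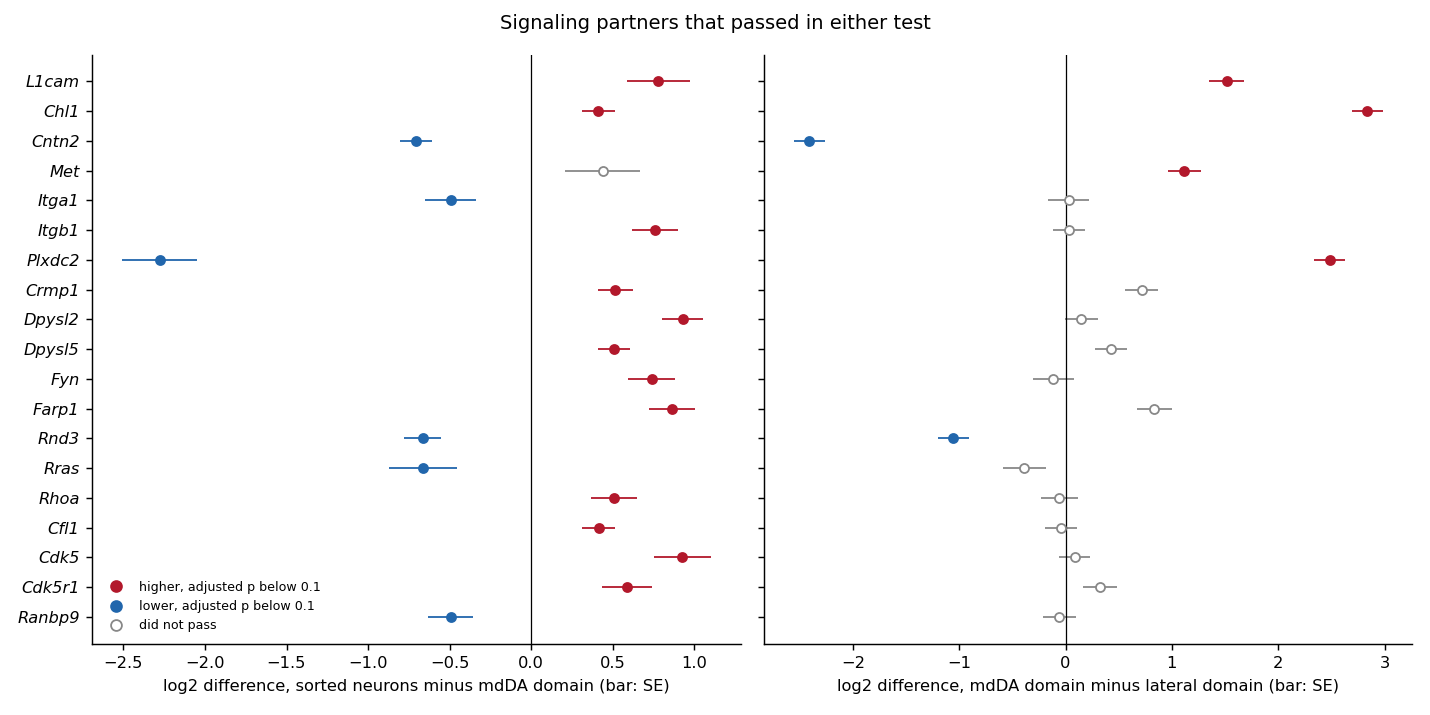
Log2 difference of the partner genes that passed in either comparison, for sorted neurons against the mdDA domain (left) and for the mdDA domain against the lateral domain (right), with bars of ± 1 SE and filled points for an adjusted p below 0.1. *Chl1*, *Plxdc2*, *L1cam* and *Met* lie to the right of 0 between the domains, and *Plxdc2* lies farthest to the left of 0 in sorted neurons, at -2.28.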

How the data were processed

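Per the labels, RNA of 4 groups was measured with 2 arrays each, and groups and array numbers were taken from the labels. The log2 value of each probe set, as deposited, came from RMA with sketch-quantile normalization, for which the authors used Affymetrix Expression Console 1.2, and entered the tests without further change. Which arrays were normalized together is not given in the sources used here, and columns of no sample numbered 0. Of 35556 probe sets 21789 had 1 gene symbol in the platform's annotation, and all 31 gene identifiers matched RefSeq.

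Differences were tested with limma 3.58.1 in R 4.3.3 (default empirical Bayes, Benjamini-Hochberg over all probe sets, false discovery rate below 10%). The test between the domains had the array number as a block, following the paired test that the study names without saying what pairs the arrays. The other tests had no block. The tests were checked on simulated data.

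The genes, partner lists and marker lists were chosen with earlier results of these data known. All 31 genes are named, with the value on each array for those that passed and, chosen after their values were seen, for *Sema6a*, *Sema6d* and *Sema7a*. Of each partner list the 4 called genes with the largest difference by size per comparison were named. Named in addition, after their values were seen, were *Met*, *Chl1* in sorted neurons, *Itga1* and the lower effectors in sorted neurons. Alternatives were other scalings, filters, priors, thresholds, blocks and probe set choices and leaving out each array. Promoters are from RefSeq (GRCm38.p6). Python 3.11.15 and matplotlib 3.10.9 were used. The precision is limited by the number of arrays.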

Additional observations from a re-analysis of the deposited data

How the results depend on the processing

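No source says what the array number pairs, and same-numbered arrays did not visibly deviate together (correlation of deviations from the group means -0.0374 to 0.0130 across pairs of groups). Without the block 6 genes passed between the domains, *Sema6d* as higher and *Sema6a* as lower in addition, and with it 10 passed in sorted neurons and 0 between E14.5 and E13.5 neurons, where 10 and 0 passed without it. Of all probe sets 4.03% were called between the domains without the block, against 2.62% with it. In sorted neurons 15.8% were called with the block and 18.4% without it. With the block *Sema4a* passed in place of *Sema3e* in sorted neurons.

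Between the domains 4 genes passed, 1 (*Nrp2*) at a false discovery rate of 5%, 7 when only probe sets with 1 symbol were tested, and 0 to 1 when an array was left out. Under the other settings 3 to 6 passed, and *Plxnc1* did not pass after repeated quantile normalization or with the mean of a gene's probe sets. Of the probe sets tested 2.62% were called in the main test, 0.638% at the 5% rate and 11.5% with 1 symbol only. The other settings called 2.25% to 5.73%. In sorted neurons 10 passed, 4 of them with a difference of at least 1.5-fold (*Sema3c*, *Sema6b*, *Plxna4* and *Plxnc1*), and 3 to 10 when an array was left out. Under the other settings 7 to 15 passed. Of the probe sets tested 18.4% were called in the main test and 12.3% with the 1.5-fold minimum. The other settings called 11.1% to 30.9%, with 11.1% where 7 genes passed and 22.9% where 15 passed. *Sema3c*, *Plxna4* and *Plxnc1* were called in sorted neurons under all settings run. The median difference over all probe sets in sorted neurons was -0.0775 as deposited, 0.0246 after repeated quantile normalization and 0.119 after centring. Between E14.5 and E13.5 neurons 0 genes passed under every setting.

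No gene that passed under any setting of a comparison changed its sign there. Of genes that passed under none, the sign changed for 8 of 24 between the domains, 7 of 13 in sorted neurons and 17 of 31 between the stages. Repeated quantile normalization gave 0.0054 for *Plxnb2* between the domains, and 0.013 for *Sema5a*, -0.010 for *Sema7a* and 0.12 for *Plxnb3* in sorted neurons. Centring gave 0.0035 for *Plxnb2* between the domains, and 0.10 for *Sema3f*, 0.0031 for *Sema5a*, 0.069 for *Sema6d*, 0.19 for *Plxnb2* and 0.12 for *Plxnb3* in sorted neurons. With 1 array left out at a time, the log2 difference between the domains ranged across 0 for *Sema3g* (-0.21 to 0.25), *Sema4b* (-0.17 to 0.26), *Nrp1* (-0.12 to 0.022), *Sema4c* (-0.34 to 0.22), *Plxnb1* (-0.092 to 0.096), *Plxnb2* (-0.072 to 0.052), *Sema3b* (-0.19 to 0.0025) and *Sema6b* (-0.52 to 0.061). In sorted neurons against the mdDA domain this held for *Sema4c* (-0.11 to 0.15), *Plxnb2* (-0.0673 to 0.0568), *Sema7a* (-0.0885 to 0.16) and *Sema3f* (-0.23 to 0.0415). For E14.5 against E13.5 neurons it held for *Sema3c* (-0.041 to 0.20), *Sema3d* (-0.0725 to 0.19), *Sema3g* (-0.098 to 0.23), *Sema6c* (-0.12 to 0.0985), *Plxnd1* (-0.22 to 0.15), *Nrp2* (-0.21 to 0.007), *Sema3b* (-0.084 to 0.04), *Sema3e* (-0.058 to 0.051), *Sema4g* (-0.0685 to 0.22), *Sema6d* (-0.22 to 0.26), *Sema7a* (-0.27 to 0.22), *Plxnb2* (-0.0465 to 0.0095), *Sema4d* (-0.49 to 0.0605), *Sema5b* (-0.39 to 0.10), *Sema6a* (-0.16 to 0.029), *Plxnb1* (-0.0765 to 0.0485) and *Nrp1* (-0.16 to 0.0095). In these fits the lone array of a group was assumed to vary like the others. The cause of these changes was not tested.

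With 2 technical replicates per group, differences below about the spread of the arrays cannot be resolved, and no value here measures the variation between embryos. Differences at levels near or below the array median are uncertain in size.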
